A study of Homo sapiens with 4 samples.

Results

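The single-base variant rs2904163, an A/G change at position 89647069 of chromosome 4, was tested in a reporter assay of the FAM13A locus by 12 designed oligonucleotides out of 7270. They were found as all entries of the deposited table that carry this variant name. They hold the A and the G allele in 3 windows, lettered L, C and R, each read as F or RC for the orientation, and together they carried 339 of the 218526 tags. A tag is an 11-base barcode that marks reporter RNA as coming from 1 oligonucleotide. The variant was chosen by its measured allelic difference, the G minus A RNA to input ratio in these same libraries, so every G minus A value below describes these libraries and is given without a test. By position it was the 87th variant of the table, counted from the lowest coordinate. Its working name places it at the 3′ end of FAM13A, but no source used here names the genome build. In the RefSeq table of GRCh38.p14, 0 of the table's positions lay within FAM13A, so the variant's place in an exon, intron or UTR was not analysed here.

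Synthesis was on a 244K array, and the inserts were placed in reporter plasmids that carried the weak minimal promoter (minP) or the strong simian virus 40 promoter (SV40). Each plasmid pool was sequenced as input, and each was nucleofected into BEAS-2B cells, an established line of human bronchial epithelium, whose mRNA was taken 24 hours later. The input and the RNA of either promoter made 4 libraries in all, each a group of its own. With 1 library per group no spread between transfections could be measured, so no p-value is given and each error is a standard error (SE) over tags. Tag counts hold no endogenous transcripts, so markers of the cell line were not analysed here.

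FAM13A is expressed in airway and alveolar epithelium and in fat, and lies in a region tied by genome-wide association to chronic obstructive pulmonary disease. Most variants of such regions lie outside coding sequence. A massively parallel reporter assay asks whether a short stretch of DNA raises or lowers transcription from a plasmid promoter, and whether a change of 1 base alters that effect, by comparing the share of each barcode in RNA with its share in the plasmid pool.

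The libraries held 11086933 to 29398765 reads, and the tags of rs2904163 had 47962 input and 10407 RNA reads with minP, and 40083 input and 22017 RNA reads with SV40. The median tag of the variant had 107 input and 11 RNA reads with minP, against 85 and 23 over all tags, and 68 and 20 with SV40, against 76 and 50. A tag entered the ratios below if it had at least 10 input reads, and 286 of the 339 tags did with minP and 269 with SV40. The losses lay mostly in 1 place, the A allele in orientation F.

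The tags are the only sequences that the reads measured directly. For each allele, the 3 tags with the most input reads are shown for window C in both orientations. Among constructs with at least 10 tags per allele in both libraries, all in orientation RC, window C had the largest mean allelic difference. The mean was 2.207 there and 2.202 in window L, so the 2 hardly differed. Window L in orientation RC is added, chosen after its values were seen, because its G minus A difference in input counts changed sign between the plasmid libraries. Letters are written as in the table, in lower case because no part of a tag is singled out.
Window C, RC, A, tag 1: atggatgacac
Window C, RC, A, tag 2: tatgcctcact
Window C, RC, A, tag 3: catcaagggat
Window C, RC, G, tag 1: agtcgatggat
Window C, RC, G, tag 2: gcatgcgttgt
Window C, RC, G, tag 3: gctgtgtttga
Window C, F, A, tag 1: tacgctttgct
Window C, F, A, tag 2: agctgatattc
Window C, F, A, tag 3: agaagtactca
Window C, F, G, tag 1: acggcatctta
Window C, F, G, tag 2: gcccgctattc
Window C, F, G, tag 3: cttaggtagtt
Window L, RC, A, tag 1: gtatggcattt
Window L, RC, A, tag 2: ctaatctaggt
Window L, RC, A, tag 3: acgtctcgata
Window L, RC, G, tag 1: acttcacgctt
Window L, RC, G, tag 2: cacttgctctg
Window L, RC, G, tag 3: aagcatcctgc

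These tags show the range of the data. In window C, orientation RC, the 3 A tags had 170 to 313 minP input reads and gave 5 to 15 minP RNA reads, while the 3 G tags had 210 to 247 input reads and gave 20 to 157. In orientation F of that window the 3 deepest A tags had only 31 to 35 minP input reads, and their RNA counts were 0, 9 and 56. The 3 deepest G tags there had 198 to 267 input reads and 28 to 247 RNA reads. In window L, orientation RC, the A tags gave 34 to 53 minP RNA reads from 312 to 649 input reads, and the G tags 172 to 267 from 592 to 766. The minP plasmid counts of the printed tags thus differed between the alleles in orientation F, and their ranges overlapped in orientation RC. Each RNA count has to be read beside its input.

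In orientation RC the G allele gave more reporter RNA per plasmid read than the A allele in all 3 windows and both libraries. Summed over the windows, the A allele had 20496 minP input reads and 1348 minP RNA reads, or 0.0658 RNA reads per input read. The G allele had 20156 and 5247, or 0.260. With SV40 the A allele gave 1970 RNA reads from 17786 input reads and the G allele 11473 from 16519, or 0.111 and 0.695 per input read. Summed plasmid counts of the alleles were thus within 1.08-fold of each other in this orientation, and RNA counts were not.

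The G allele's share of the allele pair's reads shows the same thing window by window. Intervals are exact Clopper-Pearson 95% intervals and cover counting error only, since PCR reads without molecular identifiers are not independent molecules. In window C, orientation RC, G held 51.4% of the minP input reads (50.3 to 52.5) and 89.2% of the minP RNA reads (87.7 to 90.6). With SV40 it held 66.2% of input (64.7 to 67.6) and 91.5% of RNA (90.5 to 92.4). In window L it held 62.0% of input (61.3 to 62.7) and 81.6% of RNA (80.3 to 82.8) with minP, and 43.1% (42.5 to 43.8) and 86.1% (85.4 to 86.9) with SV40. In window R the shares were 32.2% of input (31.4 to 33.0) and 55.0% of RNA (51.8 to 58.1) with minP. There they were 52.2% (51.0 to 53.3) and 71.5% (69.5 to 73.5) with SV40. The RNA share of G thus exceeded its input share in each of these 6 cases.

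Tag by tag, the activity of an element, meaning 1 allele in 1 window and orientation, was its mean log2 RNA to input ratio minus that of the average tag in the library. In window C, orientation RC, with minP the A tags ran from -4.37 through a median of -2.15 to 0.69, and the G tags from -2.34 through 0.26 to 2.84. The means were -2.31 ± 0.24 (SE, 28 tags) and 0.056 ± 0.29 (29 tags), so G minus A was 2.36 ± 0.37, or 5.14-fold. The ranges overlapped, but 27 of the 28 A tags lay below the G median and 28 of the 29 G tags above the A median. With SV40 the means there were -1.59 ± 0.24 and 0.46 ± 0.40, and G minus A was 2.05 ± 0.46, or 4.15-fold.

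In window L, orientation RC, with minP the A tags ran from -5.41 through -1.26 to 1.65 and the G tags from -3.51 through 0.16 to 2.12. G minus A was 1.47 ± 0.35 (31 and 32 tags), or 2.77-fold. With SV40 the A tags ran from -5.33 through -2.85 to 0.63 and the G tags from -3.72 through 0.75 to 1.74. Here all 31 A tags lay below the G median and 31 of the 32 G tags above the A median, and G minus A was 2.93 ± 0.32, or 7.64-fold. Window L thus had a wider allelic gap in the SV40 than in the minP libraries, while window C had nearly the same gap in either. With 1 library per group this compares libraries and not promoters, and it depended on the input used. With the input of the other pool, window L had 2.61 with minP and 1.79 with SV40, and window C 1.60 and 2.76.

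Window R in orientation RC had the smallest gap of that orientation. Both of its alleles were low: A stood at -2.40 ± 0.21 and G at -1.24 ± 0.26 with minP, and at -1.74 ± 0.22 and -1.22 ± 0.35 with SV40. G minus A was 1.15 ± 0.33, or 2.22-fold, with minP and 0.52 ± 0.42 with SV40, where it was little more than its own SE. When each RNA library was divided by the input of the other pool, an alternative chosen after seeing the data, these became 0.12 ± 0.34 and 1.66 ± 0.39, so the call of 2-fold in this window depended on which input was used. The size of the gap thus differed between windows, and R was the only window of the 3 in which the G element of orientation RC lay more than 2-fold below the average tag.

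Over the constructs with at least 10 tags per allele, a construct being 1 variant in 1 window and orientation, 3 of 5 with minP had G higher by 2-fold or more. Among all 3469 constructs tested with minP, 4.09% had the later allele in the alphabet higher by that much, and 7.41% differed by 2-fold or more in either direction. With SV40 it was 2 of 3 constructs, against 4.97% of 3439 and 10.3% in either direction. With the input of the other pool the counts were 2 of 3 with minP and 5 of 5 with SV40. No share over all constructs was computed with that input, and the shares above do not apply to these counts. In both libraries at once, 1.9% of 3417 constructs had the later allele higher by 2-fold or more, and these included windows C and L of orientation RC. The median G minus A over the variant's constructs with enough tags was 1.15 with minP and 2.05 with SV40, while the median over all constructs was 0.0070 and -0.011. Only 6 of the 3469 constructs had a larger later-allele excess with minP than window C, orientation RC, and 0 of 3439 exceeded window L, orientation RC, with SV40. These counts involve the contrast by which the variant was chosen, and nothing is read from them.

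Orientation F presented a different picture, because the A allele was scarce in the plasmid pools. Its 3 oligonucleotides had 111, 305 and 227 minP input reads in windows L, C and R, and 41, 131 and 209 SV40 input reads, where the median oligonucleotide of the whole table had 2904 and 2663. Only 93, 343 and 240 of the 7270 oligonucleotides had fewer minP input reads. The G allele in the same windows had 550, 4084 and 2033 minP input reads and 487, 3092 and 1818 SV40 input reads. G therefore held 83.2%, 93.1% and 90.0% of the pair's minP input reads in windows L, C and R. In the RC orientation of the same windows the A allele had 6943, 4067 and 9486 minP input reads, so its scarcity was tied to orientation as well as to allele.

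With so little plasmid, few A tags of orientation F reached 10 input reads. There were 6, 11 and 12 such tags in windows L, C and R with minP and 1, 6 and 8 with SV40, so 2 constructs of this orientation met the minimum of 10 tags per allele with minP and none with SV40. In window C with minP the A tags ran from -2.81 through 0.31 to 3.03, and G minus A was 0.54 ± 0.79. In window R the A tags ran from -2.77 through -1.62 to 3.86, and G minus A was 0.94 ± 0.74. Neither difference was clearly larger than its SE. With summed counts in place of the tag mean they became -0.31 and -0.28. Over all 64 A and 92 G tags of the orientation, the A allele had the more RNA reads per input read. The values were 0.731 against 0.501 with minP and 2.71 against 1.40 with SV40. These sums took in RNA of tags with no input reads. For A that was 181 of 470 RNA reads with minP and 235 of 1031 with SV40, and for G 16 of 3342 and 41 of 7543. The direction of the allelic ratio in orientation F thus turned with which tags entered and how they were combined.

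The constructs below the minimum are given for completeness. In window L, orientation F, the 6 A tags with minP had 0 RNA reads each from 99 input reads, and G minus A was 2.01 ± 0.49. With SV40 a single A tag passed, also with 0 RNA reads, and the value of 4.29 has no SE. Windows C and R of that orientation with SV40 had G minus A at 1.02 ± 1.01 (6 A tags) and 0.48 ± 1.09 (8 A tags). All 12 ratio differences of the variant were above 0. Among 590 variants with all 6 constructs measurable in both libraries, 0.847% had 1 sign throughout. Because the variant was chosen by these ratios, nothing is read from that share.

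RNA counts alone, over every tag and without any division by input, put the G allele higher in all 6 constructs of both libraries. With minP the G minus A difference in mean log2 RNA count was 2.41 ± 0.43, 3.49 ± 0.58 and 2.45 ± 0.54 in windows L, C and R of orientation F. In orientation RC it was 2.15 ± 0.40, 2.70 ± 0.45 and 0.48 ± 0.44. With SV40 it was 2.45 ± 0.59, 4.09 ± 0.63 and 2.54 ± 0.62 in orientation F, and 2.46 ± 0.38, 3.13 ± 0.52 and 0.94 ± 0.52 in orientation RC. It reached 2-fold in 5 of 6 constructs with each promoter, against 4.67% of 3618 constructs with minP and 6.69% with SV40. Window R in orientation RC was the exception in both libraries. For 1 sign in all 6 constructs the background was 6.12% of 605 variants with minP and 7.93% with SV40.

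Input counts alone separate the orientations. Over all tags, G minus A in input was 3.90 ± 0.39 and 3.48 ± 0.41 in windows C and R of orientation F with minP, at least as large as the RNA gap in the same constructs. In window L it was 1.02 ± 0.57. With SV40 the 3 values in windows L, C and R were 2.12 ± 0.59, 4.41 ± 0.38 and 3.43 ± 0.44. Input gaps of 2-fold or more toward the later allele were found in 2.43% of 3618 constructs with minP and 2.79% with SV40. In orientation RC the input gap was smaller than the RNA gap in windows L and C, where minP gave 0.67 ± 0.20 and 0.56 ± 0.36, and SV40 gave -0.47 ± 0.18 and 1.26 ± 0.31. Window R had -0.56 ± 0.43 under minP and 0.56 ± 0.39 under SV40. The RNA gap in windows C and R of orientation F thus moved with the plasmid gap, whose part in the result was not tested, while in windows L and C of orientation RC RNA differed well beyond plasmid.

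Tags of the A allele in orientation F also showed RNA without counted plasmid. With minP, 16 of the 64 tags had 0 input reads, and 6 of these had RNA reads, up to 101 on 1 tag. With SV40, 24 had 0 input reads and 14 of these had RNA reads, up to 89 on 1 tag. Of the 92 G tags, 1 had 0 input reads with minP and 4 with SV40. Among the tags of rs2904163, those not counted in the sequenced input but counted in RNA were thus mostly of the A allele. The share over all tags is not given here. Tags at 0 input were not particular to A, since rs2860500, the variant 1 base away, had them in orientation F too. In windows L, C and R, 6, 8 and 6 of its 71 C tags and 4, 6 and 12 of its 73 T tags had 0 minP input reads. With SV40 its T element in window R had 14 of 23 tags at 0 input and a median of 5 RNA reads.

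Absolute activity sorted the alleles by orientation. Of the 5 A elements with at least 10 tags under minP, 3 lay 2-fold or more below the average tag, all in orientation RC, while 15.4% of all 7006 elements did. Of the 6 G elements 1 did, window R in orientation RC. With SV40 it was 3 of 3 A elements and 1 of 6 G elements, against 18.8% of 6962. Those 3 A elements were all in orientation RC, whereas 3 of the 6 G elements were in orientation F, so these counts mix allele with orientation. Within orientation RC they were 3 of 3 for A and 1 of 3 for G. The variant was chosen by ratios from which these activities are built, so nothing is read from the shares. The lowest was A in window L, orientation RC, with SV40, at -2.78 ± 0.20 or 6.88-fold below the average tag. Which A element was lowest depended on the input used. With the input of the other pool, A in windows L, C and R of that orientation stood at -1.73, -2.77 and -2.89 with SV40. The highest was G in window C, orientation F, at 0.49 ± 0.37 with minP and 1.06 ± 0.38 with SV40. No G element of this variant was more than 2-fold above the average tag with minP, where 9.28% of elements were, and with SV40 only that 1 was, against 12.9%. The G elements outside window R, orientation RC, thus lay near the average tag with minP, and in orientation RC the A elements lay well under it.

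The promoters were compared over tags that passed in both libraries. The minP minus SV40 difference of G minus A was -1.46 ± 0.25 in window L, 0.31 ± 0.36 in window C and 0.64 ± 0.50 in window R of orientation RC. With 1 library per group these compare libraries and not promoters. Only the value for window L was well beyond its SE, and the plasmid counts of the pools differed beside it. The A element of window L, orientation RC, had 236 input CPM (reads scaled to equal library totals) with minP and 472 with SV40, a log2 change of 0.998 that lay at percentile 99.2 of all oligonucleotides, and its share was higher in the SV40 input for 30 of its 31 tags. The A elements of windows C and R in that orientation went the other way, by -1.30 and -1.18, at percentiles 1.35 and 1.68, with 3 of 27 and 0 of 28 tags higher. The G elements of windows L, C and R changed by -0.11, -0.42 and 0.013. RNA CPM of the A element of window L were 62.6 with minP and 43.9 with SV40, and those of its G element 277 and 273. With the input of the other pool, the promoter difference in window L turned to 0.82 ± 0.24, and those of windows C and R to -1.21 ± 0.41 and -1.62 ± 0.45, so all 3 changed sign with the input used. G minus A in window L then became 2.61 ± 0.33 with minP and 1.79 ± 0.33 with SV40, so G stayed the higher allele while the order of the promoters was exchanged.

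The nearest other variant, rs2860500, a C/T change 1 base away at position 89647070, supplied 12 further oligonucleotides around almost the same sequence. No source used here says which allele of rs2904163 they carry. In orientation RC their activity with minP ran from -2.40 to -1.82 over 3 windows and both alleles, beside -2.40 to -1.54 for the A elements and -1.24 to 0.056 for the G elements of rs2904163. With SV40 it ran from -2.39 to -0.92, beside -2.78 to -1.59 for A and -1.22 to 0.46 for G. With windows pooled, both alleles of the neighbour thus lay in or near the range of A. The exception was T in window R with SV40, at -0.92 ± 0.34, which was above the G element of that window. In window R with minP the neighbour lay between the alleles. There A was below C and T, by -0.58 ± 0.33 and -0.54 ± 0.41, and G above them, by 0.58 ± 0.37 and 0.61 ± 0.44. Set against the neighbour's elements of the same window and orientation, with at least 10 tags on each side, the A elements differed by a median of -0.039 with minP (6 pairs) and -0.28 with SV40 (6 pairs). The differences ran from -0.58 to 0.50 with minP and from -1.10 to 0.54 with SV40. The lowest, -1.10 ± 0.32, was A against T in window L, orientation RC. The G elements were higher by a median of 1.82 with minP (7 pairs) and 1.86 with SV40 (6 pairs), and by 2-fold or more in 4 of 7 and 5 of 6 pairs. The share of other element pairs that differ by that much is not given here. Because the variant was chosen by ratios from which these activities are built, nothing is read from these counts.

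The scarce plasmid of orientation F was shared with the neighbour as well. In that orientation its C allele had 572 minP and 451 SV40 input reads over 3 windows and its T allele 579 and 334, beside 643 and 381 for A and 6667 and 5397 for G of rs2904163. In orientation RC the neighbour had 8677 and 9758 minP input reads for C and T. At this pair of positions the A, C and T oligonucleotides were thus scarce in orientation F, and the G oligonucleotides of rs2904163 were less so. In window L, orientation RC, by contrast, the neighbour's C and T elements had only 826 and 966 minP input reads against 6943 for A of rs2904163, so near-identical inserts did not always have the same plasmid count.

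The allelic difference of the neighbour itself was small with minP in orientation RC. There T minus C ran from -0.26 to -0.037 over its 3 constructs with enough tags. With SV40 in that orientation it was -0.72 ± 0.29 in window C, 0.71 ± 0.36 in window L, and as much as 1.31 ± 0.46 in window R, with no common direction. In orientation F no construct of the neighbour had 10 tags per allele. In windows L, C and R there, T minus C was 1.67 ± 1.04, -0.63 ± 1.01 and 1.59 ± 1.37 with minP. With SV40 it was 4.03 ± 1.18, 0.96 ± 1.38 and -0.52 ± 1.39. The window L values stand beside 2.01 and 4.29 for G minus A of rs2904163, also below the minimum. On the other side, the nearest variant was rs3017897 at position 89646706, 363 bases away. Its 12 elements lay between 0.16 and 0.87 with minP and between -0.27 and 1.14 with SV40, and its G minus C differences between -0.39 and 0.54 and between -0.43 and 0.53. The low activity of the A elements was thus not seen in the elements of that variant.

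The barcodes were compared for features that the choice of the variant did not use. Mean tag GC content ran from 46.9% to 57.9% over the 12 oligonucleotides, against 49.9% over all tags, and the highest value belonged to A in window L, orientation F, which had 11 tags where the other oligonucleotides had 25 to 32. Tags that begin with TC, 1.54% of all tags, numbered 2 of 30 for A in window C and 3 of 31 for A in window R of orientation RC, and 0 in the other 10 oligonucleotides.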

How the data were processed

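The authors deposited whole-number read counts per tag for 4 libraries, from single reads of 36 nt per the labels. No source used here states the matching, filtering or deduplication of reads, and sequences of the oligonucleotides were not used here. The deposited counts entered unchanged. The tag ratio was the log2 of RNA count plus 1 over the library total, minus the same for input, at 10 or more input reads; element activity subtracts the mean over all passing tags (-0.78 with minP, -1.01 with SV40). G minus A is the difference of means, with its SE over tags, for constructs with at least 10 tags per allele unless said otherwise; "called" means 2-fold. The files hold 1 library per group, so no test was made and no count model was used.

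The name of the G oligonucleotide of window L, orientation RC, has a lower-case window letter, as 1 oligonucleotide of each variant does; it was read as window L. Members, lists and alternatives were chosen with earlier results of these data known. Named variants are rs2904163 and its nearest neighbour on each side. Printed tags are the 3 deepest per allele of 1 construct and of its other orientation, with window L, orientation RC, added. That construct had the largest mean difference among those with enough tags in both libraries. The ratio functions were tested on simulated data. Python 3.11.15, numpy 2.4.6, pandas 2.3.3 and scipy 1.17.1 were used. Alternatives covered the input minimum, pseudocount, tags at 0 RNA reads, trimming, medians, summed counts, shared tags, tags that begin with TC and the input used.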

Additional observations from a re-analysis of the deposited data

Results flagged for a closer look

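In input counts alone, over tags with at least 10 input reads, the G minus A difference had opposite signs in the minP and SV40 plasmid libraries in 3 constructs; each group held 1 library, and the differences were not tested. In window L, orientation RC, it was 0.67 ± 0.20 in the minP and -0.47 ± 0.18 in the SV40 pool, which lie 1.14 apart. In window R, orientation RC, it was -0.80 ± 0.30 and 0.050 ± 0.28, or -0.85 for minP minus SV40. The SV40 value there was smaller than its SE, so its sign is uncertain. In window L, orientation F, it was 0.57 ± 0.26 and -0.11, 0.68 apart, with 6 and 1 A tags. Over all tags that construct had 1.02 and 2.12, which share 1 sign.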

How the results depend on the processing

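No paired analysis was possible because each group held 1 library. Over the 8 allelic differences with at least 10 tags per allele, the settings listed with the processing, other than the choice of input, gave 70 values. Of these, 65 were above 0 and 60 moved by less than 1 SE. Some of the 60 could not move, because the setting removed no tag. In window L, orientation RC, other input minima, shared tags and removal of TC tags all left 1.47 with minP and 2.93 with SV40. A minimum of 50 input reads left no A tag in orientation F and gives no value there. The 5 values below 0 all lay in orientation F with minP. Without tags at 0 RNA reads, windows C and R there stood at -0.80 and -2.31, with summed counts at -0.31 and -0.28, and with tags that pass in both libraries at 1.64 and -0.74 (2 and 3 A tags). In orientation RC, summed counts gave 2.95 in window C with minP and 1.20 in window R with SV40, and medians over tags gave 3.59 and 2.59 in windows L and C with SV40. With the input of the other pool, G minus A was 2.61, 1.60 and 0.12 in windows L, C and R with minP and 1.79, 2.76 and 1.66 with SV40. The minP minus SV40 difference then was 0.82, -1.21 and -1.62; window C gave 0.67 with a minimum of 50 input reads, and window R 0.083 with medians. Of 231 element values, 172 moved by less than 1 SE. The cause of these shifts was not tested. Only 29 of 64 A tags of orientation F had 10 minP input reads, which limits what depth can show there.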

Other observations

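Elsewhere at the locus, 5 other pairs of variants lay at most 4 bases apart, counted after the data were seen. The median absolute difference between elements of such a pair in the same window and orientation was 0.29 to 1.17 with minP and 0.51 to 1.31 with SV40 on the log2 scale. For rs2904163 and rs2860500, over both alleles of each, it was 0.58 and 0.92, inside those ranges.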
